A study of Homo sapiens with 4 samples.

Results

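The 10 genes described here encode receptors at the surface of T cells that tune the signal of the T cell receptor: CD28, ICOS, CTLA4, PDCD1, LAG3, SLAMF1, CD5, CD6, CD44 and CD226. They were chosen by name, and every probe set with one of these names as its single gene symbol was taken, which gave 36 probe sets of 9 genes, out of 54675 probe sets on the array and 19775 genes with a probe set of their own name alone. PDCD1 had no probe set with its name as the single gene symbol in the annotation used, and its signals are not analysed here. A probe set was taken to be measurable where it had a signal of 56.4 or more on at least 1 array, which is the median of all signals, and 16 of the 36 probe sets, of 8 genes, did so. The 5 probe sets of CTLA4 did not. A gene that passes through its bright arrays alone is bound to show a difference, which applies to SLAMF1, CD44 and LAG3 below and to dim genes of the related lists, such as CD160. It also applies to CSF1R and to some genes named for a like profile, such as GATA3-AS1.

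The cells were Jurkat, an established human T cell leukaemia line. One line carried a short hairpin RNA against IKKε, the kinase encoded by IKBKE (the shIKKE line), and the other a control hairpin, which the sample titles name a vector (the control line). The shIKKE line was either stimulated with 10 ng/ml PMA and 0.5 uM ionomycin or given solvent, and so was the control line, for 3 h, which made 4 groups of 1 array each. Whether each line was a clone or a pool is not given in the sources used here. With 1 array per group, no difference between arrays has a replicate check, and all such differences are given as values with no test. Messenger RNA was measured in bulk, so a change in the share of cells and a change of RNA per cell cannot be told apart.

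CD28 family receptors bind B7 proteins on antigen-presenting cells: CD28 and ICOS add a positive signal through phosphatidylinositol 3-kinase, and CTLA4 and PDCD1 restrain it. LAG3 is an inhibitory relative of CD4 that binds MHC class II. SLAMF1 binds itself on a neighbouring cell and signals through the adaptor SAP, CD226 binds the nectin-like protein PVR, CD5 and CD6 are scavenger-type receptors that dampen T cell receptor signals, and CD44 is a receptor for hyaluronan. In primary T cells CD28, CD5 and CD6 are present at rest, while ICOS, CTLA4, PDCD1, LAG3 and SLAMF1 are known to be induced or raised on activation. The phorbol ester PMA switches on protein kinase C and ionomycin lets in calcium, so both act past the receptors at the membrane.

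The arrays had been scaled to one trimmed mean. Their median signals lay between 48.8 and 69.1. The 5′ to 3′ ratio of ACTB, which falls as RNA degrades, was 0.266 stimulated and 0.339 with solvent in the shIKKE line. In the control line it was 0.401 stimulated and 0.244 with solvent. The ratios of GAPDH lay between 1.04 and 1.17. Of 9 T cell markers 8 had a named probe set, and 7 of these reached a signal of 500, whereas none of the measured B cell, myeloid, natural killer, erythroid or epithelial markers did. IKBKE read 248 on the stimulated array of the shIKKE line against 520 on that of the control line, and 180 against 340 with solvent, by its brighter probe set. The dimmer one read 280 against 311 and 287 against 218, so the probe sets disagreed in direction with solvent. CD69, TNF and IL2 were higher with stimulation in both lines. Their log2 differences were 5.51, 6.06 and 4.49 in the shIKKE line and 3.36, 3.71 and 3.81 in the control line. Those of EGR1 were 4.14 in the shIKKE line and 1.22 in the control line, and those of FOSB 3.88 and -2.27. The early response genes FOSB and EGR1 were high on the solvent array of the control line. FOSB read 7.38 on the solvent array of the shIKKE line and 1364 on that of the control line, and EGR1 read 1035 and 9953. For each receptor gene and list, the response in the control line is therefore also given against the other solvent array, that of the shIKKE line, a baseline that adds the difference between the lines. The part of that array in the results below was not tested otherwise.

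Among the 8 measurable receptor genes, ICOS, SLAMF1 and CD44 were at least 2-fold higher on the stimulated array of the shIKKE line, and SLAMF1 and CD44 on that of the control line. No receptor gene was 2-fold lower with stimulation in either line. Over all 13717 measurable genes, 10.3% were past 2-fold upward and 2.68% downward in the shIKKE line, and 7.57% upward and 6.44% downward in the control line. With the shIKKE solvent baseline, SLAMF1 alone was 2-fold higher in the stimulated control line and none lower, where 8.02% of all genes were past 2-fold upward and 4.38% downward. The median log2 difference of the 8 genes was 0.49 in the shIKKE line and 0.23 in the control line, against -0.01 and -0.07 over all genes. Log2 differences here are of the signal plus 14.1, which understates differences of dim genes. Of all genes past 2-fold, 79.4% were higher in the stimulated shIKKE line, against 59.6% after quantile normalization and 62.1% after cyclic loess. In the control line the share was 54.0%, against 42.8% and 45.0%. ICOS and SLAMF1 kept their 2-fold differences under both scalings, while CD44 in the shIKKE line did not (log2 0.85 and 0.82).

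**Figure D1:**
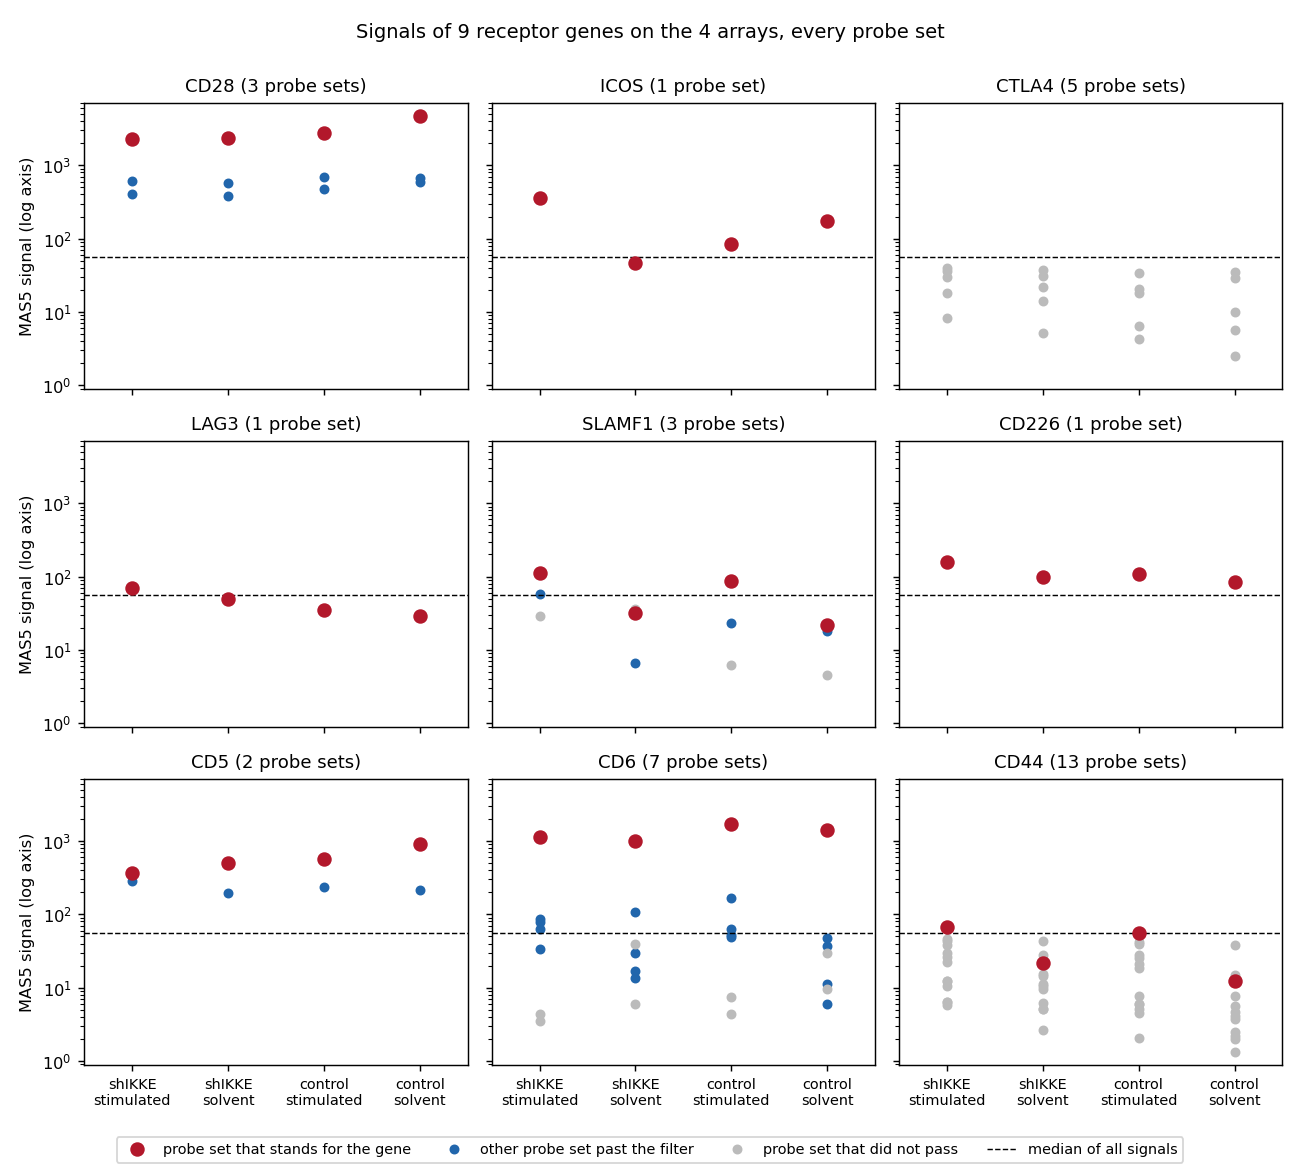
MAS5 signals (log axis, arbitrary units) of all 36 probe sets of 9 receptor genes on the 4 arrays, 1 point per probe set and array; the large red points stand for the gene, and the dashed line is the median of all signals. CD28, CD5 and CD6 have a probe set well above the line on every array, ICOS crosses it, and all CTLA4 points lie below it.

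ICOS, the inducible costimulator, had the largest range over the 4 arrays of the 8 genes, a log2 of 2.61. Its single probe set read 356 on the stimulated and 46.4 on the solvent array of the shIKKE line, against 83.2 on the stimulated and 174 on the solvent array of the control line. The order of the arrays was thus reversed between the lines: stimulation went with the higher signal in the shIKKE line and with the lower one in the control line. In the shIKKE line the log2 difference was 2.61, a 6.12-fold difference on that scale, and 0.787% of all genes were as high or higher. In the control line it was -0.95, just short of 2-fold, and it passed 2-fold with a pseudocount of 1 (log2 -1.05), quantile normalization (-1.15) or cyclic loess (-1.12). Set against the shIKKE solvent array instead, the stimulated control array was higher by a log2 of 0.69.

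Between the lines, ICOS was higher in the shIKKE line than in the control line when both were stimulated (log2 1.93) and lower when both had solvent (log2 -1.64). It was the 1 receptor gene past 2-fold in either comparison, where 5.99% of all genes were past 2-fold upward and 2.37% downward with stimulation, and 4.34% upward and 6.68% downward with solvent. The response in the shIKKE line exceeded that in the control line by a log2 of 3.56, the rank of 19 from the top among 13717 genes. Of all genes, 11.4% had such a difference past 2-fold upward and 4.67% downward. This difference was not tested, because each response rests on 1 pair of arrays. Across the alternative settings it lay between 2.73 and 3.97. CSF1R, one of 9 listed myeloid markers, read 107 and 7.62 on the stimulated and solvent arrays of the shIKKE line and 8.69 and 29.3 on those of the control line. It passed the limit of 56.4 through the stimulated shIKKE array alone, so a difference was bound to show. ITGAM, the other myeloid marker past the limit, read 103 and 87.5 in the shIKKE line (log2 0.20). In the control line ITGAM read 51.4 and 42.3 (log2 0.22). The summed signal of 6 measured myeloid markers was 274 and 185 in the stimulated and solvent shIKKE line and 147 and 102 in the control line. CD14, LYZ, S100A8 and S100A9, which define myeloid cells, did not reach 56.4 on any array, and the part of such cells in the ICOS values was not tested.

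ICOS, CTLA4 and CD28 are consecutive protein-coding genes on chromosome 2, in the RefSeq order of GRCh38.p14, with none between them. ICOS is shown here because it had the largest range over the arrays, and CD28 because it is the bright gene of this cluster. SLAMF1 is shown because both lines had more of it when stimulated, which also held for CD44, whose window is not shown. The windows below run from 250 bases before to 50 bases after the RefSeq start of each gene. The ICOS window is chr2:203936513-203936812 on the plus strand, that of CD28 is chr2:203706389-203706688 on the plus strand, and that of SLAMF1 is chr1:160646995-160647294 on the minus strand. Capitals mark matches to 5 motifs searched on both strands: GGAAA (the core bound by NFAT), TGANTCA (AP-1), GCGNGGGCG (EGR), TATAAA (the TATA box) and the κB consensus. No matches overlapped in these 3 windows.
ICOS: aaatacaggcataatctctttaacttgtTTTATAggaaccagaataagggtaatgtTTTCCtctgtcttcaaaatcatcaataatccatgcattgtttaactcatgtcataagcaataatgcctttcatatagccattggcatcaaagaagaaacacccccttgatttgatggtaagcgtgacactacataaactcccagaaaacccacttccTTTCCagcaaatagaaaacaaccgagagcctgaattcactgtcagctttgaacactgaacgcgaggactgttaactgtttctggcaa
CD28: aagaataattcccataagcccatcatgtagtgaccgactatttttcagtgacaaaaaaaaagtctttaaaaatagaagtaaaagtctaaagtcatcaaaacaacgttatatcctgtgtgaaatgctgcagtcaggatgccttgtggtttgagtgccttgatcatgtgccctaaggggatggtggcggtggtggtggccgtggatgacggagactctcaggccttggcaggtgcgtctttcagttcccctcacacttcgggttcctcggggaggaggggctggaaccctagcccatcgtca
SLAMF1: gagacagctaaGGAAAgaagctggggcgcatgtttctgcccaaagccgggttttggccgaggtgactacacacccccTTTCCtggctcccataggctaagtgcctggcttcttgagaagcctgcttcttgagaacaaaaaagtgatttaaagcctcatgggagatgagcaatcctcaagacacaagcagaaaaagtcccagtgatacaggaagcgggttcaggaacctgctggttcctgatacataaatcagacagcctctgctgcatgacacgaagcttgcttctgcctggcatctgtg
The ICOS window holds GGAAA on the minus strand (read as TTTCC) from bases -194 and -37 before the start, and the TATAAA letters on the minus strand at -222. SLAMF1 holds GGAAA at -239 and, on the minus strand, at -173. The CD28 window has no match to any of the 5 motifs. Of 35116 windows of this length, 61.2% hold GGAAA, 7.71% TGANTCA, 9.43% GCGNGGGCG, 11.5% TATAAA and 5.91% the κB consensus, so GGAAA is common in windows of this kind. Windows were found for 7 of the 10 genes and not for LAG3, CD5 and CD6. Of the genes whose windows are not shown, CD44 had no match to any of the 5 motifs, while CTLA4 had 2 GGAAA matches and PDCD1 had 1. PDCD1 also had κB matches, and a CD226 window had a TGANTCA match. Whether these motifs go with the responses was not tested.

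SLAMF1, the founding receptor of the SLAM family, was higher on the stimulated array in both lines. Its brightest probe set read 112 stimulated and 31.4 with solvent in the shIKKE line, and 87.0 stimulated and 21.7 with solvent in the control line. Both stimulated arrays lay above both solvent arrays, and the shIKKE line was higher by a log2 of 0.32 stimulated and 0.35 with solvent. The log2 differences were 1.48 in the shIKKE line and 1.50 in the control line, values reached by 5.31% and 3.16% of all genes. Against the other baseline the response of the control line was 1.15. A second probe set read 58.1 and 6.69 in the shIKKE line (log2 1.80) and 23.4 and 18.0 in the control line (log2 0.23), so it showed the difference in the shIKKE line alone. The third stayed below 56.4, between 4.49 and 36.4. With a pseudocount equal to the median signal, the differences of the brightest probe set were 0.94 and 0.88. The gene is dim, and the solvent signals lay below the median of all signals.

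CD44, the hyaluronan receptor, had 13 probe sets, of which 1 passed the limit, and that one narrowly. It read 67.8 stimulated and 22.0 with solvent in the shIKKE line, and 56.6 stimulated and 12.4 with solvent in the control line. The stimulated arrays were higher in both lines, by a log2 of 1.18 in the shIKKE line and 1.42 in the control line, or 0.97 in the control line against the other baseline. The other 12 probe sets read between 1.33 and 46.6, and over all 13 the log2 difference with stimulation ran from -1.14 to 1.66 in the shIKKE line and from -0.60 to 1.58 in the control line. They do not share a direction. On the stimulated arrays the gene's brightest probe set lay close to the median of all signals, and its solvent signals lay below it.

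CD28, the main costimulatory receptor, was bright on every array. Its brightest probe set read 2264 stimulated and 2345 with solvent in the shIKKE line, and 2739 stimulated and 4677 with solvent in the control line. The solvent array of the control line stood above the other 3, which lay close together. The log2 differences with stimulation were -0.05 in the shIKKE line and -0.77 in the control line, and 0.22 in the control line with the shIKKE solvent baseline. Between the lines, CD28 was lower in the shIKKE line by a log2 of -0.27 with stimulation and -0.99 with solvent. The solvent value passed 2-fold after quantile normalization (log2 -1.004) and cyclic loess (log2 -1.018). The other 2 probe sets, both of a kind that shares probe sequences with other transcripts, had smaller differences between the lines with solvent, log2 -0.64 and -0.22. The first of these read 408 and 380 in the stimulated and solvent shIKKE line and 476 and 599 in the control line. The second read 603 and 577 in the shIKKE line and 688 and 673 in the control line. All 3 CD28 probe sets were thus lower in the shIKKE line in both treatments, and without further scaling none was so by 2-fold.

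CD5, a receptor that dampens T cell receptor signals, was also brightest on the solvent array of the control line by 1 of its 2 probe sets. That probe set read 366 stimulated and 499 with solvent in the shIKKE line, and 575 stimulated and 918 with solvent in the control line. It was lower with stimulation in both lines (log2 -0.43 in the shIKKE and -0.66 in the control line) and lower in the shIKKE line in both treatments (log2 -0.63 stimulated and -0.86 with solvent). With the shIKKE solvent baseline the response of the control line turned to a log2 of 0.20. The other probe set had the opposite direction with stimulation. It read 285 and 194 in the shIKKE line (log2 0.53) and 235 and 216 in the control line (log2 0.11). The probe sets of CD5 therefore leave its direction with stimulation unsettled, within 2-fold.

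CD6, which lies next to CD5 on chromosome 11 and binds ALCAM, had 7 probe sets. The brightest read 1151 stimulated and 986 with solvent in the shIKKE line, and 1695 stimulated and 1407 with solvent in the control line. The stimulated signal was slightly higher in both lines (log2 0.22 in the shIKKE and 0.27 in the control line, or 0.77 in the control line with the other baseline), and the shIKKE line was lower in both treatments (log2 -0.55 stimulated and -0.51 with solvent). The 4 arrays thus differed by less than 2-fold. Of the other 6 probe sets 4 passed the limit, with signals of at most 168, and they disagreed. One read 79.5 and 13.5 in the shIKKE line and 52.7 and 11.3 in the control line, a log2 difference with stimulation of 1.76 and 1.40. Another read 86.6 and 108 in the shIKKE line (log2 -0.27) and 168 and 37.0 in the control line (log2 1.84). With the median of its probe sets in place of the brightest, the CD6 response in the shIKKE line was a log2 of 1.09.

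LAG3, the inhibitory relative of CD4, was dim. It read 68.8 stimulated and 50.1 with solvent in the shIKKE line, and 34.9 stimulated and 28.8 with solvent in the control line. Both arrays of the shIKKE line lay above both of the control line, by a log2 of 0.76 with stimulation and 0.58 with solvent. Stimulation went with log2 differences of 0.37 in the shIKKE line and 0.19 in the control line, and their average turned to -0.0066 after quantile normalization and -0.0373 after cyclic loess. The response of the control line was -0.39 with the shIKKE solvent baseline. CD226, an activating receptor for PVR, read 156 and 97.6 in the stimulated and solvent shIKKE line and 109 and 83.8 in the control line. Its log2 differences with stimulation were 0.61 in the shIKKE line and 0.33 in the control line (0.14 with the other baseline), all within 2-fold.

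CTLA4, the inhibitory counterpart of CD28, had 5 probe sets whose signals lay between 2.51 and 39.9 over the 4 arrays. Its highest signals were 39.9 on the stimulated and 37.2 on the solvent array of the shIKKE line, and 34.1 on the stimulated and 34.7 on the solvent array of the control line. All were below the median of all signals, and no difference is drawn from them. Such signals do not show that the transcript was absent.

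**Figure D2:**
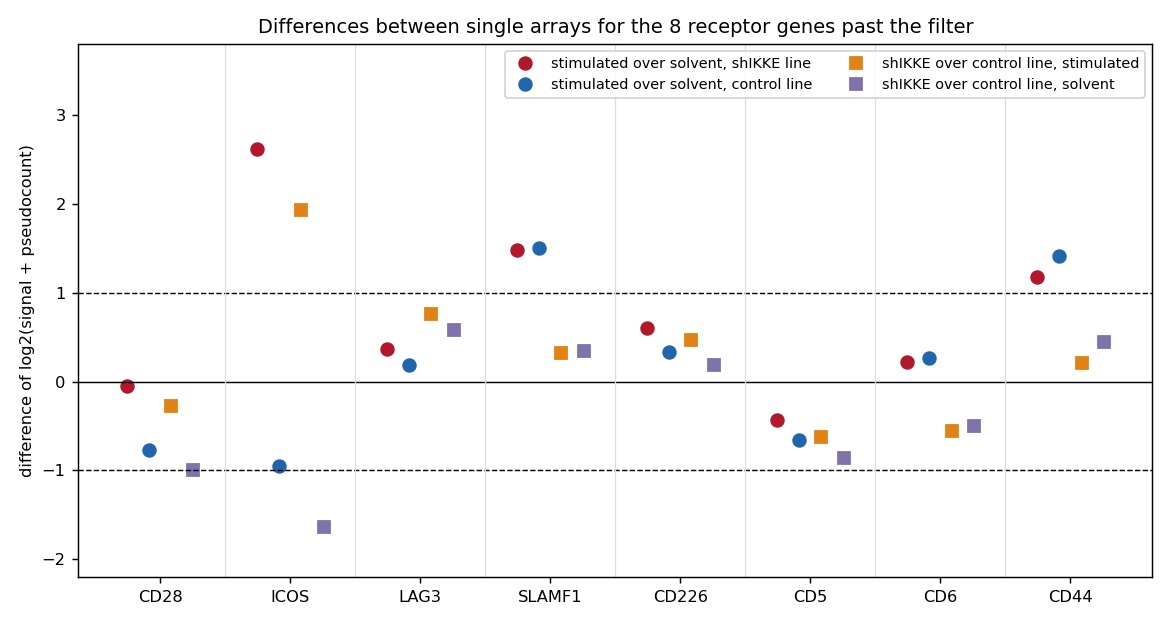
Differences of log2(signal plus 14.1) between single arrays (vertical axis) for the 8 receptor genes past the limit; circles are stimulated over solvent in each line and squares shIKKE over control line in each treatment, and the dashed lines mark 2-fold. ICOS lies at 2.61 and -0.95 for the responses of the shIKKE and control lines, while SLAMF1 and CD44 lie above 1 in both lines.

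A model that adds a line term and a stimulation term was fitted with limma to all 13717 genes on the 4 arrays, and its p-values were adjusted by the Benjamini-Hochberg method over all of them. Its 1 residual degree of freedom is the difference between the responses of the lines, not an error between replicates. None of the 8 receptor genes passed an adjusted p of 0.05 for stimulation or for the line, where 0.00729% of all genes passed for stimulation and 0% for the line. At an unadjusted p under 0.05, 13.8% of all genes passed for stimulation and 7.29% for the line. The average stimulation effect of SLAMF1 was a log2 of 1.49 ± 0.25 (SE, 4 arrays; limma adjusted p = 0.145), and over the alternative settings its adjusted p ran from 0.0524 to 0.306. That of CD44 was 1.30 ± 0.25 (adjusted p = 0.172). ICOS, whose responses had opposite signs, averaged 0.83 ± 0.86 (adjusted p = 0.700). For the line, CD5 averaged -0.75 ± 0.25 (adjusted p = 0.660), LAG3 0.67 ± 0.25 (adjusted p = 0.677), CD28 -0.63 ± 0.30 (adjusted p = 0.718) and CD6 -0.53 ± 0.25 (adjusted p = 0.716).

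**Figure D3:**
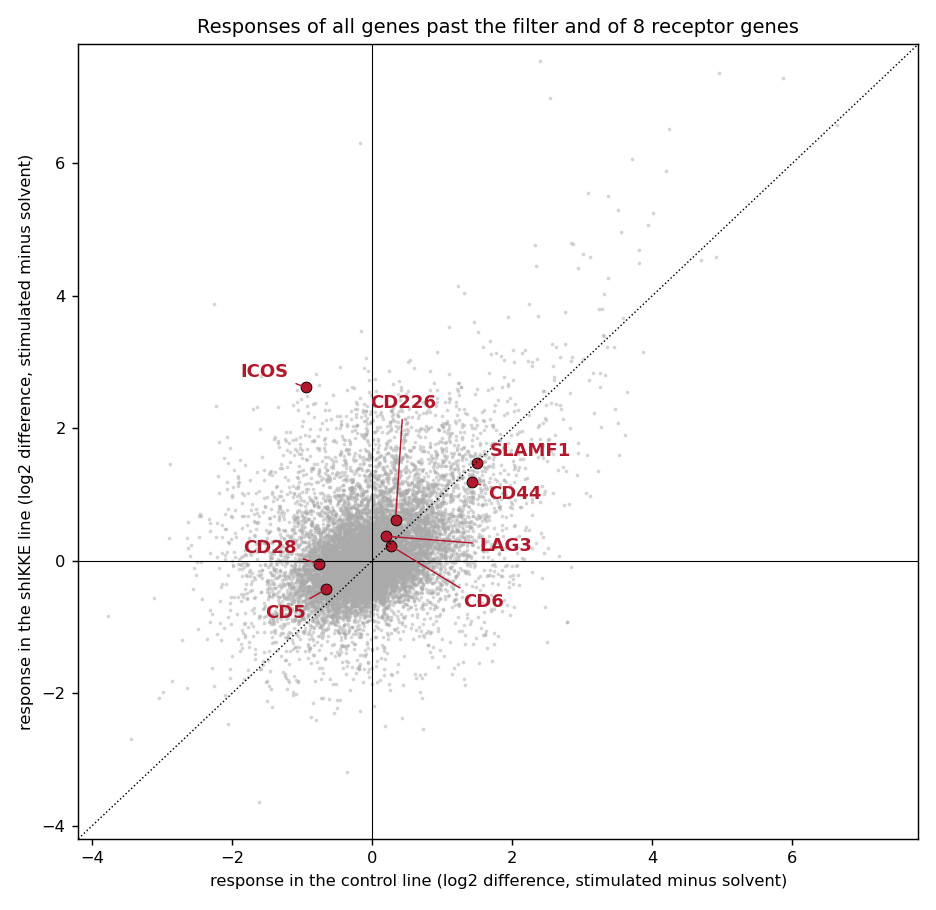
Log2 difference of stimulated minus solvent in the shIKKE line (vertical axis) against that in the control line (horizontal axis) for 13717 genes (grey) and the 8 receptor genes (red); the dotted line marks equal responses. SLAMF1 (1.48 and 1.50) lies on that line, and ICOS (2.61 and -0.95) lies far above it.

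The genes whose signals varied over the arrays most like those of ICOS, SLAMF1 and CD44 were found by the Euclidean distance between mean-centred log2 values over the 4 arrays. Nearest to ICOS were GATA3-AS1 (distance 0.21), AKAP4 (0.23) and C9orf163 (0.26), all dim. GATA3-AS1 read 83.0 and 4.53 in the stimulated and solvent shIKKE line and 12.8 and 33.6 in the control line. Nearest to SLAMF1 were GATA3 (0.09), OTUD4 (0.10) and LNROP (0.10). GATA3, a T cell transcription factor, read 15784 and 5528 in the stimulated and solvent shIKKE line and 11648 and 4398 in the control line, the same order of arrays as SLAMF1. Nearest to CD44 were LOC105377924 (0.09), IL2RA (0.10) and ZNF721 (0.11). IL2RA, a subunit of the interleukin 2 receptor, read 109 and 45.4 in the shIKKE line and 95.6 and 26.5 in the control line. LNROP, LOC105377924 and IL2RA passed the limit through the stimulated arrays alone. With 4 arrays and 13717 genes, close profiles of this kind are a description of these arrays.

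Other genes of the same pathways were followed in 4 lists, whose counts stand beside these shares of all genes. With stimulation, 10.3% were past 2-fold upward and 2.68% downward in the shIKKE line. In the control line the shares were 7.57% and 6.44%, or 8.02% and 4.38% with the shIKKE solvent baseline. Between the lines, 5.99% were higher in the shIKKE line and 2.37% lower with stimulation. With solvent 4.34% were higher and 6.68% lower. Of 19 ligands and counter-receptors, 11 were measurable. None was 2-fold higher or lower with stimulation in the shIKKE line, with a median log2 difference of 0.09, while 3 were lower and none higher in the control line, with a median of -0.24. CD48, a ligand of the SLAM-family receptor CD244, read 1302 and 1522 in the stimulated and solvent shIKKE line and 1685 and 4253 in the control line. CD58, the ligand of CD2, read 1624 and 1837 in the shIKKE line and 1491 and 3406 in the control line. Both were high on the solvent array of the control line alone, as CD28 was. A dim CD58 probe set was higher with stimulation in both lines, by a log2 of 1.30 and 1.25. With the shIKKE solvent baseline, 1 gene of the list was 2-fold lower in the stimulated control line (HAS3, a hyaluronan synthase, log2 -1.04) and 2 were higher, with a median of 0.15. PVR, the ligand of CD226, read 288 and 223 in the shIKKE line and 217 and 152 in the control line. ALCAM, the ligand of CD6, read 1150 and 1076 in the shIKKE line and 695 and 987 in the control line.

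Of 17 related receptors, 14 were measurable. With stimulation, 1 was at least 2-fold higher and 1 lower in the shIKKE line (median -0.07), and 1 was higher and 2 lower in the control line (median -0.30). CD160, an inhibitory and costimulatory receptor, was the higher one in both lines, with 76.8 and 31.1 in the stimulated and solvent shIKKE line (log2 1.01) and 32.8 and 3.37 in the control line (log2 1.43). Both of its control-line signals lay below the limit of 56.4, and with the shIKKE solvent baseline the response of that line was a log2 of 0.05. By that baseline 1 of the 14 was higher, SLAMF7, a receptor of the SLAM family (log2 1.44), and none lower, with a median of 0.07. SLAMF7 read 35.7 on the stimulated control array and 4.32 on the shIKKE solvent array, both below 56.4. It passed the limit through the solvent array of the control line alone, and its other probe sets did not pass. CD244 was the lower one in the shIKKE line, with 74.4 and 234 (log2 -1.49), and read 236 and 388 in the control line (log2 -0.68). Between the lines, 3 of the 14 were lower and 1 higher in the shIKKE line, both with stimulation (median -0.31) and with solvent (median -0.56). CD2, an adhesion and costimulatory receptor, was among the lower ones in both treatments. It read 353 against 760 with stimulation (log2 -1.08) and 500 against 1976 with solvent (log2 -1.95), and its average line effect had a limma adjusted p of 0.564. VSIR, an inhibitory receptor also called VISTA, was the one higher in the shIKKE line when both were stimulated, 347 against 159 (log2 1.06). A second, dimmer probe set gave a log2 of -0.73 there. With solvent the brighter one read 174 against 270 (log2 -0.60). Its responses to stimulation had opposite signs, as those of ICOS had, a log2 of 0.95 in the shIKKE line and -0.71 in the control line. The dimmer probe set gave -0.07 and 0.91. The responses of SLAMF7 also had opposite signs, 0.97 and -0.61.

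Of 21 proximal adaptors, kinases and phosphatases, 19 were measurable, and by the brightest probe sets 17 or more were within 2-fold in each of the 4 comparisons. Of the genes within 2-fold with stimulation, 4 in the shIKKE line and 2 in the control line had another measurable probe set past 2-fold. FYN, a Src-family kinase that binds SAP, was one of them in both lines. Its brightest probe set read 6974 and 5235 in the stimulated and solvent shIKKE line (log2 0.41) and 4980 and 5615 in the control line (log2 -0.17). A dimmer FYN probe set read 1182 and 30.2 in the shIKKE line (log2 4.75) and 809 and 52.3 in the control line (log2 3.63), and another read 924 and 52.3 (log2 3.82) and 872 and 62.7 (log2 3.53). The probe sets of FYN thus disagreed, and its response depends on which one stands for the gene. LCP2, the adaptor SLP-76 that links T cell receptor and costimulatory signals, was the 1 gene of the list whose brightest probe set was at least 2-fold higher with stimulation in both lines. It read 3915 and 988 in the shIKKE line (log2 1.97) and 2889 and 1356 in the control line (log2 1.08). With the shIKKE solvent baseline its response in the control line was 1.53, and PIK3R1, a regulatory subunit of phosphatidylinositol 3-kinase, was the 1 gene lower (log2 -1.10), with a median of -0.07 over the list. SH2D1A, which encodes SAP, the adaptor of SLAMF1, read 3449 and 6105 in the shIKKE line (log2 -0.82) and 3205 and 7655 in the control line (log2 -1.25). With stimulation its signals were thus lower in both lines, where those of SLAMF1 were higher.

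Of 16 transcription factors known to act on these receptor genes, 13 were measurable. With stimulation 5 were at least 2-fold higher in each line and none lower by the brightest probe sets. Of all genes, 10.3% were higher in the shIKKE line and 7.57% in the control line. The medians of the list were 0.59 in the shIKKE line and 0.50 in the control line. By the brightest probe sets, TBX21, BCL6 and GATA3 were higher in both lines. NFATC1 and NFATC2 were so in the shIKKE line alone, and IRF4 and MAF in the control line alone. For NFATC2 the log2 differences were 1.12 in the shIKKE line and 0.85 in the control line. A second NFATC2 probe set read 929 and 427 in the shIKKE line (log2 1.10) and 895 and 381 in the control line (log2 1.20). It was thus past 2-fold in both lines. TBX21, which encodes T-bet, read 445 and 64.0 in the stimulated and solvent shIKKE line (log2 2.56) and 412 and 64.1 in the control line (log2 2.44). BCL6, the transcriptional repressor that defines follicular helper T cells, read 1280 and 202 in the shIKKE line (log2 2.58) and 1950 and 610 in the control line (log2 1.66), with a log2 of 0.58 and 0.71 in the shIKKE line and 2.95 and 1.51 in the control line by 2 dimmer probe sets. NFATC1, a calcium-regulated factor, read 5371 and 1425 in the shIKKE line (log2 1.90) and 2776 and 1989 in the control line (log2 0.48). The dimmer measurable NFATC1 probe sets disagreed in the control line, with a log2 of 1.09, 0.47 and -0.89. A dimmer ETS1 probe set was past 2-fold downward in both lines. It read 1165 and 3142 in the shIKKE line (log2 -1.42) and 633 and 1475 in the control line (log2 -1.20). Another ETS1 probe set gave a log2 of -1.38 and 0.39, and the brightest gave -0.33 and -0.82. For TOX, a dimmer probe set gave -0.13 in the shIKKE line and -1.09 in the control line. The brightest TOX probe set gave 0.38 and -0.46. With the shIKKE solvent baseline 4 of the 13 were higher in the control line and 1 lower, with a median of 0.77. The lower one was MAF, a factor of helper T cells, at a log2 of -2.14, against 1.01 with the line's own baseline. MAF read 83.2 and 148 in the stimulated and solvent shIKKE line and 22.7 and 4.17 in the control line. Both control-line signals lay below 56.4, so MAF passed the limit through the shIKKE arrays alone, and its other probe sets did not pass. No gene of the 4 lists passed the limma model at an adjusted p of 0.05.

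**Figure D4:**
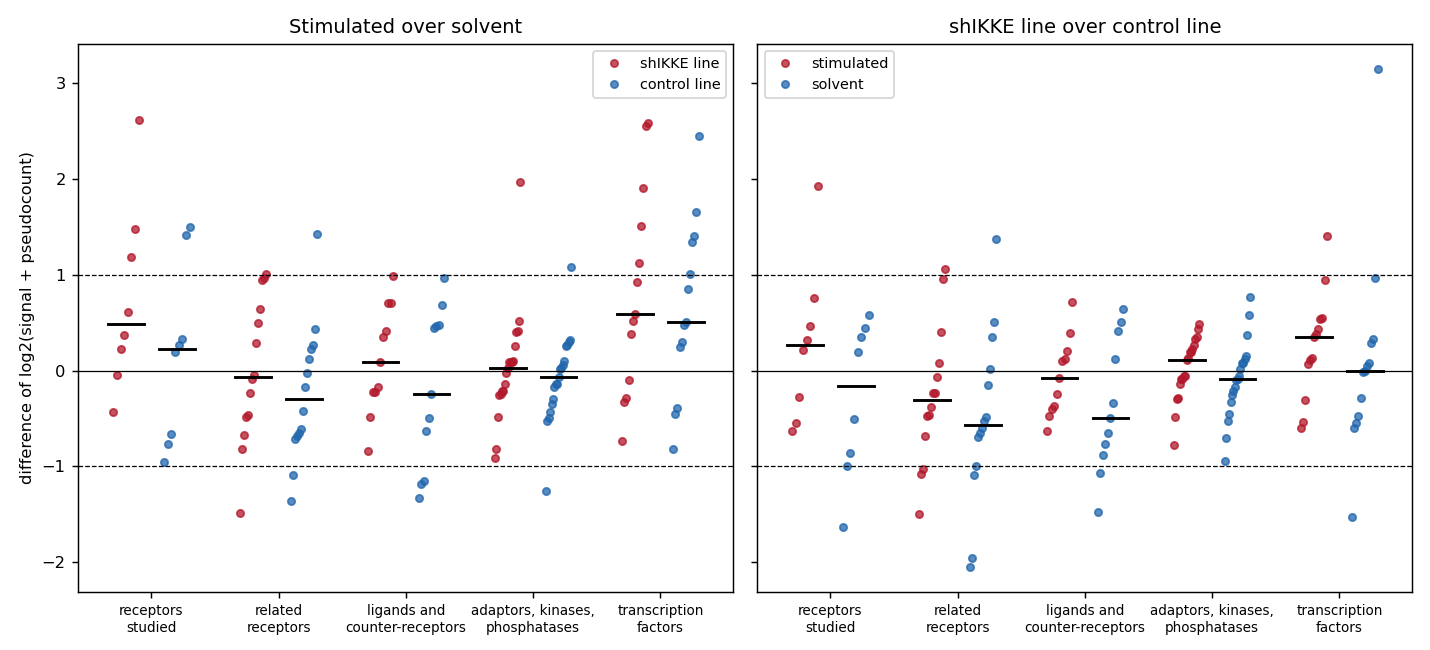
Log2 differences (vertical axis, 1 point per measurable gene, black bars at the medians) for the receptors studied and 4 lists of related genes; the left panel is stimulated over solvent in each line and the right panel shIKKE over control line in each treatment, with dashed lines at 2-fold. Each gene is drawn by its brightest probe set. In the left panel the transcription factors have the highest medians, 0.59 and 0.50, and the adaptors' medians lie near 0.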

How the data were processed

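Signals of 4 samples, 1 array per group, were taken from the deposited table, which holds 1 intensity per probe set, a linear MAS5 signal as named in the submitters' processing notes. Neither the MAS5 version nor its scaling target is given in the sources used here. After trimming 2% at both ends, every array had a mean of 500.07. Depth has no meaning for arrays, and their number limits the precision. All its sample columns were used. RNA came from a Qiagen RNeasy kit, per the labels' protocols, and cRNA was labelled with biotin from 6 ug of total RNA. Sample titles and the design text gave the groups. Every sample carries one treatment text, so stimulated and solvent samples were told apart by these. Whether these were separate cultures is not stated in the labels.

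Probe sets were named from the platform annotation where it gave 1 symbol (41091 probe sets), without the 62 array controls. Values were log2 of the signal plus 14.1, the 25th percentile of all signals. Probe sets were kept where the highest array reached 56.4 (26218 probe sets of 13717 genes), and the probe set with the highest mean stood for its gene. Differences of at least 2-fold (log2 of 1) were counted. The additive fit of line and stimulation (two-sided) used lmFit and eBayes of limma 3.58.1, run in R 4.3.3, and was checked on simulated data. Other steps used Python 3.11.15, pandas 2.3.3 and numpy 2.4.6, and plots used matplotlib 3.10.9. Promoter sequences are from RefSeq, GRCh38.p14; no build is named for the arrays. The receptor genes and lists were chosen with earlier results of these data known. Named genes were all receptors, the 3 genes nearest in profile to each of the 3 receptors of largest range, and list members past 2-fold, up to 4 per list and comparison; ligands of these receptors within 2-fold, SH2D1A, FYN and probe sets singled out were chosen after their values were seen. Alternatives were 2 other pseudocounts, no filter, quantile and cyclic loess normalization, the median of the probe sets, an error that follows the level, and another baseline.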

Additional observations from a re-analysis of the deposited data

Results flagged for a closer look

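ICOS was singled out because its single probe set had responses of opposite sign in the lines, a log2 of 2.61 in the shIKKE line and -0.95 in the control line. The response in the shIKKE line was larger by 3.56, and this difference between the lines was not tested. One CD6 probe set past the limit had responses of opposite sign as well, -0.27 in the shIKKE line and 1.84 in the control line, a difference of -2.11 that was not tested either. It is dim, and the brightest CD6 probe set had responses of 0.22 and 0.27, which differ by -0.05.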

How the results depend on the processing

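No paired analysis was possible because each group has 1 array, so the groups share a single replicate number, and leaving out an array leaves no residual degree of freedom. Of the 8 measurable receptor genes, 3 were at least 2-fold higher with stimulation in the shIKKE line, against 1 with a pseudocount equal to the median signal (56.4), 2 with quantile normalization and with cyclic loess, and 4 with the median of the probe sets of each gene. Over all 13717 genes the count was 1417, against 690, 1017, 1007 and 1495 in the same order. In the control line 2 receptor genes were higher, against 0 with that pseudocount, 1 with the median of the probe sets of each gene and 1 with the shIKKE solvent baseline. The count over all genes was 1039, against 541, 1093 and 1100. No receptor gene was 2-fold lower in the control line, against 1 (ICOS) with a pseudocount of 1, with quantile normalization and with cyclic loess. Of all genes 884 were lower there, against 1115, 1121 and 1089. Between the lines with solvent 1 receptor gene was lower, against 2 (ICOS and CD28) with quantile normalization and with cyclic loess. Of all genes 916 were lower, against 858 and 907. The average stimulation effect of LAG3 turned to -0.0066 with quantile normalization and -0.0373 with cyclic loess, and that of CD28 (-0.41) to 0.0473 with the median of its probe sets. The average line effect of CD6 (-0.53) turned to 0.0357 with that median. The counts of the other comparisons, and the count of 0 receptor genes past an adjusted p of 0.05 in the limma model, held under the alternatives run. Over all genes, 1 passed for stimulation (0 for the line), against 573 (39) with the median pseudocount and 1044 (232) with an error that follows the level. The causes of these changes were not tested. The dimness of SLAMF1, CD44, LAG3 and CTLA4 limits what their differences can show.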
